A study of Mus musculus and Ictidomys tridecemlineatus with 36 samples.

Results

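The *Neurod1* locus of the mouse was examined as the set of CUT&RUN peaks that overlap the *Neurod1* gene (ENSMUSG00000034701.9, minus strand, GRCm38 chr2:79452521-79456751) or the 100 kb on either side of it. CUT&RUN maps a protein or a histone mark by cutting and sequencing the DNA around a bound antibody. Of 246656 peaks in the 5 mouse lists, 76 met this rule, and the window they share is 204 kb long. Within the locus, peaks were chosen by position alone, so their height, their overlaps, and their sequences were not used to choose them. The locus itself was chosen with earlier results of these data known. All were measured in whole retinas of P2 mice (postnatal day 2), for which the labels name no strain, genotype, or treatment, and each biological replicate was a pool of retinas from 3 mice. The 20 mouse libraries comprised 4 for Neurod1, 8 for Otx2, 2 each for the promoter mark H3K4me3, the active mark H3K27ac, and the enhancer mark H3K4me1, and 2 for the IgG antibody control. Every target and IgG had 2 biological replicates. The larger numbers for Neurod1 and Otx2 came from technical replicates and, for Otx2, from a second antibody. The Otx2 libraries used 4 times an R&D Systems antibody and 4 times an Atlas Antibodies antibody, and the deposited list pools both. Each deposited peak carries just 1 fold enrichment over IgG and 1 −log10 q-value, pooled over the libraries of its target, so no spread between replicates could be computed, no difference between targets could be tested, and read depth is unknown. Bulk retina mixes progenitors, photoreceptor precursors, and other neurons, and the cells that carried a peak cannot be told apart. At this age the start sites of *Otx2*, *Crx*, and *Prdm1*, genes of developing photoreceptors, each had 1 H3K4me3 peak within 1 kb. This is common, since 11554 of 21938 protein-coding genes had H3K4me3 within 1 kb of the start.

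Neurod1 is a basic helix-loop-helix (bHLH) transcription factor that pairs with E-proteins and binds E-boxes, short sites with the letters CANNTG. In the retina it is known from photoreceptor precursors and amacrine cells, and photoreceptors depend on it for their survival. Otx2 is a homeodomain factor required for photoreceptor fate, with a preference for sites containing TAATCC. A transcription factor that occupies its own gene, the arrangement called autoregulation, can hold its expression in place once it has started. Occupancy in a peak list does not show an effect on transcription.

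The Neurod1 list placed 8 of its 4744 peaks at its own locus. The strongest lay 57.1 kb downstream of the transcription start site (TSS), inside an intron of *Cerkl*, a ceramide kinase-like gene known from inherited retinal degeneration, and reached 27.4-fold. The next was at the *Neurod1* promoter, with 11.1-fold. The 3 peaks with the highest fold are shown first by their sequence, because the results below turn on them. Each line gives the 300 bases around the summit, 5′ to 3′ on the plus strand of GRCm38, and capitals mark CAGATG or CAGCTG, E-box forms that neurogenic bHLH factors favour, and TAATCC, each on either strand. The intronic peak is read from chr2:79399469-79399768, the second intronic peak from chr2:79421804-79422103, and the promoter peak from chr2:79456964-79457263, all of it upstream of the TSS.
Neurod1 peak 2, intron of Cerkl: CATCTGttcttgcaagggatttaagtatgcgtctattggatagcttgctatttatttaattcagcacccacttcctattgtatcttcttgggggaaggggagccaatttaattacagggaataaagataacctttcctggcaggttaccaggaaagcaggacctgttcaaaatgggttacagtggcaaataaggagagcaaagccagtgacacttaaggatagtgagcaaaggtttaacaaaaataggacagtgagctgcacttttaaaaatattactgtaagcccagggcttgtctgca
Neurod1 peak 5, intron of Cerkl: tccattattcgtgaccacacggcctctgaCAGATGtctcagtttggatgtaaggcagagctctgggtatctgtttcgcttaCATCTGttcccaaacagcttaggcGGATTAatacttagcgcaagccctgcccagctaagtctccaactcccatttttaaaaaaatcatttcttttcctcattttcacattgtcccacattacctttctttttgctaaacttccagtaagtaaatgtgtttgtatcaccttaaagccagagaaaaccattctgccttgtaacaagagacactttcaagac
Neurod1 peak 7, promoter: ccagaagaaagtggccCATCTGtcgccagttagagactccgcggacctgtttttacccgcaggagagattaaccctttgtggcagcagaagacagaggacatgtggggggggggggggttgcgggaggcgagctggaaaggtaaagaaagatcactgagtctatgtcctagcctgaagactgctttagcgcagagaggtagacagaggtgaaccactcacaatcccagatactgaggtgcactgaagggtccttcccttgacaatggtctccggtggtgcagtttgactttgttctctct

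The peaks are numbered by position along the chromosome. Because *Neurod1* is read from the minus strand, low numbers lie downstream of its TSS. Peak 2 (chr2:79399078-79400248, 1171 bp wide) had a −log10 q of 189 and ranked 12 of 4744 by fold, so that 0.253% of the list was at least as enriched. Ranked by −log10 q instead, it was number 35, or 0.738% of the list. Peak 7 (chr2:79456617-79457539) spanned the TSS, with its summit 362 bp upstream, a −log10 q of 75.6, and rank 156, and 3.29% of the list was at least as enriched. These 2 peaks had the highest folds of the window, and they differ in place, the former being far inside a neighbouring gene and the latter at the start of *Neurod1* itself.

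The other 6 peaks were lower. Peak 5 (chr2:79421564-79422270), 34.8 kb downstream in the same *Cerkl* intron, had 5.77-fold and a −log10 q of 19.5. Peak 8 (chr2:79458900-79459853), with its summit 2834 bp upstream of the TSS on an exon of the noncoding RNA gene *Gm26755*, had 4.57-fold and a −log10 q of 19.3. Peak 4 (chr2:79414374-79415003), 42.1 kb downstream, had 3.90-fold. These 3 peaks stood above the Neurod1 list median of 3.78-fold, and 3 more stood below it. Peak 1 (chr2:79391093-79391331), on an exon of *Cerkl* 65.6 kb downstream, had 3.07-fold. Peak 3 (chr2:79410562-79410842) and peak 6 (chr2:79450911-79451398), 46.0 kb and 5697 bp downstream, both had 2.95-fold and a −log10 q of 3.69. Such low values recur, since 14 peaks of the list share this exact pair of values. With a −log10 q of at least 5, 5 of the 8 peaks remained. The median of the 8 was 4.23-fold.

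**Figure D1:**
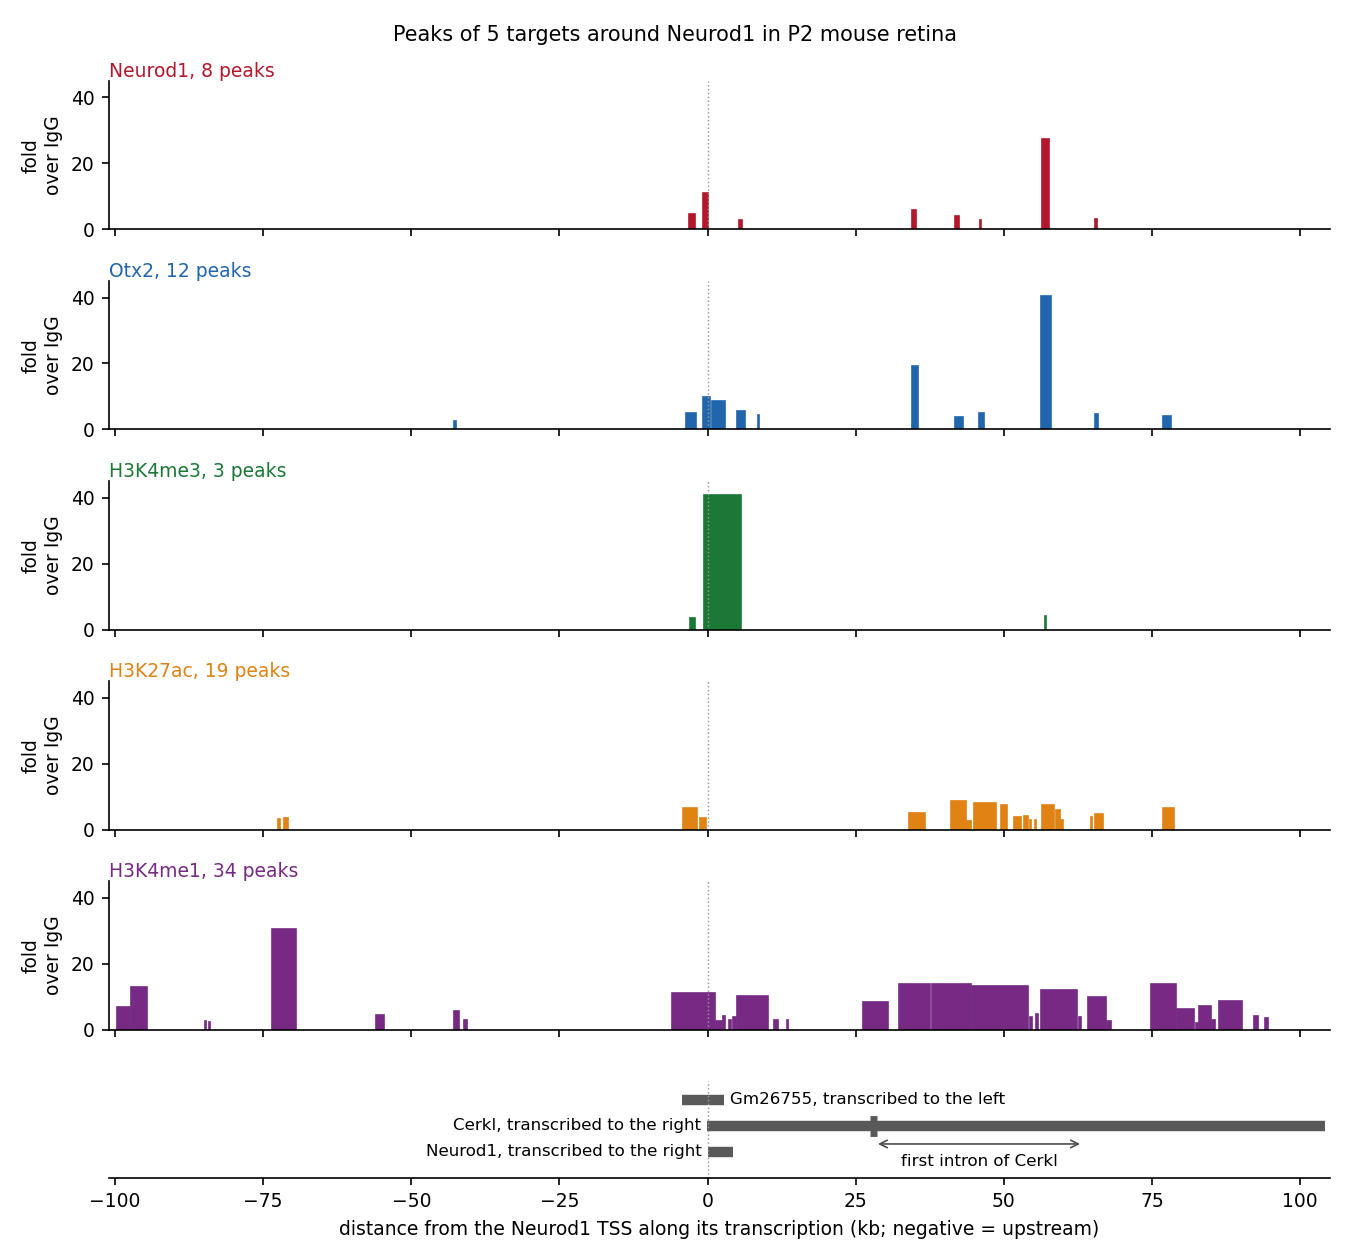
Peaks of the 5 targets across the window, with distance from the *Neurod1* TSS in kb on the x axis (upstream to the left) and fold enrichment over IgG on the y axis. Each bar spans a peak, and the gene models stand at the bottom with *Cerkl* cut at the window edge. The block on *Cerkl* is the first exon of its transcript with the most coding segments in the window. The tallest Neurod1 (27.4-fold) and Otx2 (40.5-fold) bars coincide 57.1 kb downstream.

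Otx2 had 12 peaks in the window, of 29115 in its list, 9 with summits downstream of the TSS and 3 upstream. The strongest (chr2:79398777-79400438), again 57.1 kb downstream in the *Cerkl* intron, reached 40.5-fold with a −log10 q of 349. By fold it was number 2 of 29115 (0.00687% of the list), and by −log10 q number 15. Its summit lay 34 bp from that of Neurod1 peak 2. The second Otx2 peak (chr2:79421234-79422337), 34.7 kb downstream at Neurod1 peak 5, had 19.2-fold and rank 63. Otx2 therefore had its highest values at intronic sites and not at the promoter. At the promoter, Otx2 had 9.79-fold with the summit 37 bp upstream of the TSS. A further Otx2 peak of 8.48-fold (chr2:79453776-79455967) had its summit in the *Neurod1* intron, 1527 bp downstream, where Neurod1 had no peak. The other 8 peaks had between 2.43-fold and 5.70-fold. Of these, 5 lay at Neurod1 peaks, with 4.58-fold at peak 1, 5.03-fold at peak 3, 3.86-fold at peak 4, 5.70-fold at peak 6, and 4.97-fold at peak 8. The 3 others had no Neurod1 peak. They were a peak of 4.03-fold 77.6 kb downstream under H3K27ac of 6.67-fold, a peak of 4.45-fold 8638 bp downstream with H3K4me1 only, and the weakest, of 2.43-fold, 42.5 kb upstream, also with H3K4me1 only.

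All 8 Neurod1 peaks overlapped an Otx2 peak, which was also the case for 82.1% of all Neurod1 peaks, so that this count stands near the background of the list. Read from the Otx2 side, 8 of 12 Otx2 peaks overlapped a Neurod1 peak, against 13.1% of all Otx2 peaks. The distance between paired summits ranged from 18 to 654 bp with a median of 129 bp, and 4 of 8 pairs lay within 100 bp. Over all 3895 Neurod1 peaks with an Otx2 peak, the median was 66 bp and 61.7% lay within 100 bp. The median gap at the locus was thus the wider. The factors did not keep a fixed ratio of enrichment. At peak 5, Otx2 had 19.2-fold and Neurod1 5.77-fold, while at the promoter Neurod1 had 11.1-fold and Otx2 9.79-fold. Overlap of 2 lists does not show that both proteins sat on the same DNA molecule or in the same cell.

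**Figure D2:**
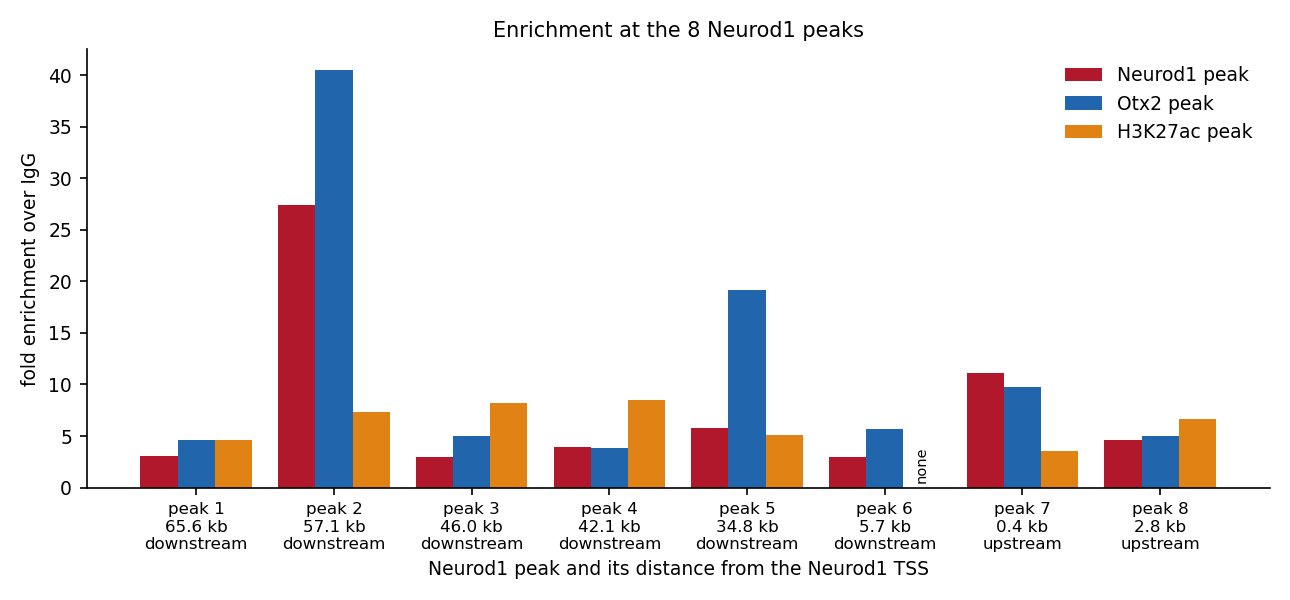
Fold enrichment over IgG (y axis) of the Neurod1 peak and of the strongest Otx2 and H3K27ac peak that overlaps it, at the 8 Neurod1 peaks of the window (x axis, with distance from the *Neurod1* TSS). Peak 2 has the highest Neurod1 and Otx2 bars, H3K27ac runs from 3.55-fold to 8.53-fold, and peak 6 has no H3K27ac peak.

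H3K4me3 set the promoter apart from the intronic sites. This mark of active promoters had 3 peaks in the window. The main peak (chr2:79451130-79457294) covered the whole *Neurod1* gene, was 6165 bp wide and reached 40.9-fold, with its summit in the coding exon 1871 bp downstream of the TSS. By fold, 6.18% of the 14069 H3K4me3 peaks were at least as high, whereas by width only 0.490% were at least as broad. H3K4me3 was low elsewhere in the window. A peak of 888 bp and 3.52-fold lay at Neurod1 peak 8, and a peak of 250 bp and 3.97-fold with a −log10 q of 4.10 lay at Neurod1 peak 2.

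H3K27ac, found at active enhancers and promoters, had 19 peaks, of which 15 had summits downstream of the TSS. The highest (chr2:79413210-79415735) reached 8.53-fold at Neurod1 peak 4, with 1.25% of the 62930 H3K27ac peaks at least as enriched. The broadest, 3638 bp wide with 8.18-fold, lay at Neurod1 peak 3. At Neurod1 peak 2, where both factors were highest, H3K27ac had 7.35-fold. The order of the sites by acetylation therefore differed from the order by factor enrichment. Upstream, H3K27ac had 6.67-fold at Neurod1 peak 8 and 3.55-fold in a peak that overlapped Neurod1 peak 7 at the promoter. No H3K27ac peak touched the *Neurod1* gene body. Acetylation without a factor peak was also found inside *Cerkl*. Between 50.5 and 59.8 kb downstream, 7 H3K27ac peaks of 2.86-fold to 7.46-fold overlapped neither Neurod1 nor Otx2, and the highest of them (chr2:79406141-79407315) lay between Neurod1 peaks 2 and 3. A peak of 2.59-fold 43.9 kb downstream and a peak of 3.84-fold 64.7 kb downstream had no factor peak either. The median of the 19 peaks was 4.08-fold, against 3.36-fold for the list.

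H3K4me1, found at enhancers whether active or poised, had 34 peaks and covered 38.5% of the window, compared with 11.8% for H3K27ac, 6.81% for Otx2, 3.58% for H3K4me3, and 2.64% for Neurod1. The 8 Neurod1 peaks each overlapped an H3K4me1 peak of 9.99-fold to 14.0-fold. The highest H3K4me1 peak of the window lay apart from all of them. It was found 72.2 kb upstream (chr2:79526165-79530331), reached 30.6-fold, and only 0.135% of the 135798 H3K4me1 peaks were at least as enriched. It overlapped H3K27ac peaks of 3.48-fold and 3.09-fold and no peak of Neurod1 or Otx2.

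The marks at the factor peaks can be read against the whole lists. Of the 8 Neurod1 peaks, 7 overlapped H3K27ac (52.3% of all Neurod1 peaks), 4 overlapped H3K4me3 (25.6%), and 8 overlapped H3K4me1 (85.2%). Of the 12 Otx2 peaks, 8 overlapped H3K27ac (36.2% of all Otx2 peaks), 5 overlapped H3K4me3 (43.3%), and 12 overlapped H3K4me1 (78.9%). From the side of acetylation, 7 of the 19 H3K27ac peaks overlapped Neurod1 (3.90% of all H3K27ac peaks), 8 overlapped Otx2 (16.6%), and all 19 overlapped H3K4me1 (58.9%). A larger share of the acetylated peaks overlapped a factor here than in the list as a whole, a difference that was not tested. The peaks here were also wider than their lists, with median widths of 968 against 432 bp for H3K27ac. The medians were 1218 against 561 bp for Otx2 and 668 against 418 bp for Neurod1, whereas H3K4me3 peaks were narrower (888 against 1338 bp). An overlap needed only 1 bp, and the overlap shares were not adjusted for width. Neighbouring peaks share a stretch of chromatin, so these counts are not independent observations. The exception among the Neurod1 peaks was peak 6, which overlapped the downstream edge of the broad H3K4me3 peak, with its summit outside it, and had no H3K27ac.

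Position within the window was uneven. As reference, the *Cerkl* transcript with the most annotated coding segments in the window was taken, and its use in the retina was not measured. Its first intron (chr2:79393186-79428701, 35.5 kb) held the summits of 4 of the 8 Neurod1 peaks, 4 of the 12 Otx2 peaks, and 12 of the 19 H3K27ac peaks. H3K27ac covered 45.1% of this intron and H3K4me1 86.8%. The first exon of that *Cerkl* transcript, with 500 bp on each side, had no peak of H3K4me3, H3K27ac, Neurod1, or Otx2 and only H3K4me1. Another annotated *Cerkl* transcript begins beside the *Neurod1* TSS, at position 79456785, so the promoter peaks cannot be assigned to either gene alone. The intronic peak 2 lay 57.1 kb from the *Neurod1* TSS and 57.2 kb from that of the long *Cerkl* transcript. The start of *Itga4*, which encodes an integrin subunit, was 144 kb away. Other annotated *Cerkl* transcripts start nearer to peak 2, at positions 79391139, 79393034, and 79428891 among others, so *Neurod1* is not its nearest start. Position does not show which gene peak 2 acts on. On the other side, the stretch from 10 to 60 kb upstream held 1 Otx2 peak, of 2.43-fold, 3 H3K4me1 peaks, and nothing else. Neurod1 had no peak further upstream than peak 8.

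**Figure D3:**
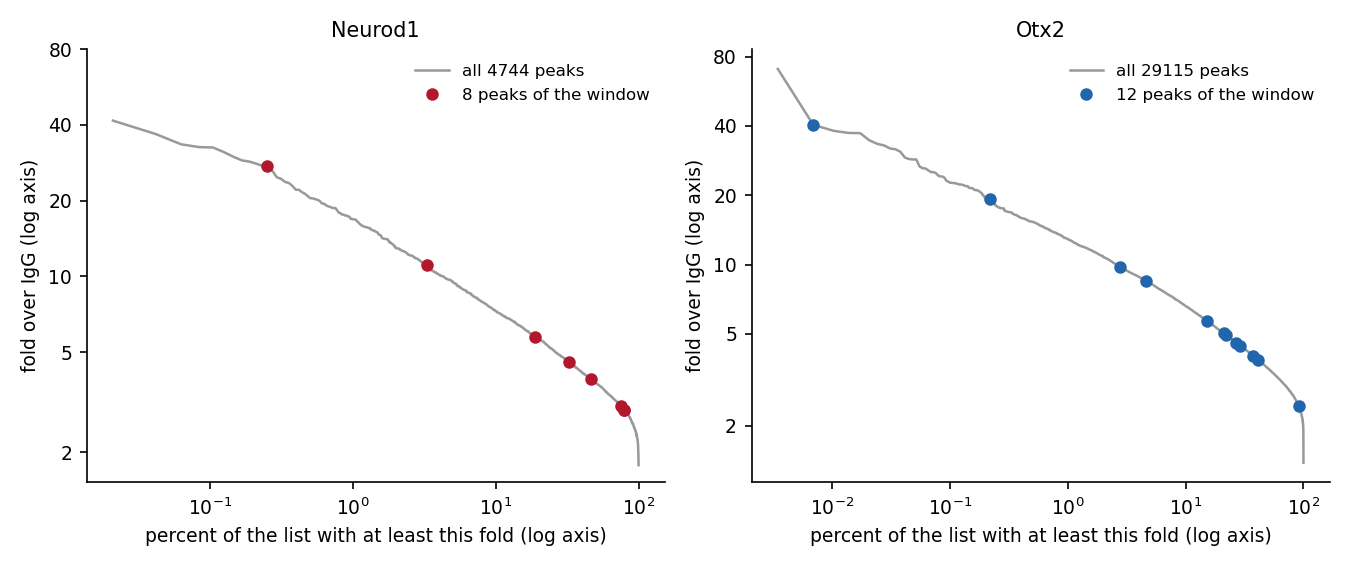
Fold enrichment over IgG (y axis, log) against the percent of the list with at least that fold (x axis, log) for all Neurod1 and all Otx2 peaks (grey lines), with the peaks of the window as points. The strongest points sit at 0.253% of the Neurod1 list and 0.00687% of the Otx2 list, and the others spread down to the weak end of both lists.

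To place the locus among other genes, peaks were counted in the same way, gene plus 100 kb on each side, for 21938 protein-coding genes. At least 8 Neurod1 peaks were found around 0.656% of genes, and 40.3% had any. At least 12 Otx2 peaks were found around 9.79% of genes, at least 19 H3K27ac peaks around 8.12%, and at least 34 H3K4me1 peaks around 7.38%. These shares moved with the window and the threshold. Counting peaks whose −log10 q reached 5, the share was 1.76% for Neurod1, 3.87% for Otx2, and 2.79% for H3K27ac. With 50 kb on each side it was 6.29% for Otx2, 13.7% for H3K27ac, and 24.4% for H3K4me1, and with 100 kb on each side of the start site alone it was 0.419% for Neurod1, 4.44% for H3K27ac, and 2.11% for H3K4me1. With 3 H3K4me3 peaks the locus was ordinary, since 51.8% of genes had as many or more. The median gene had 0 Neurod1, 4 Otx2, 3 H3K4me3, 4 H3K27ac, and 15 H3K4me1 peaks. A Neurod1 peak within 1 kb of the start, as at *Neurod1*, was present at 4.23% of genes, and an Otx2 peak at 47.0%. Genes with the most similar counts over the 5 targets, by the summed difference of log2(count + 1), were *6430548M08Rik* (0.43), *Cerkl* (0.69, whose window overlaps this one), *Ube3b* (0.71), *Fam92b* (0.76), and *Qsox1* (0.78).

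The windows of 3 other photoreceptor factor genes held fewer Neurod1 peaks. Around *Otx2* there were 7 Neurod1 peaks, the highest of 16.9-fold and 64.8 kb downstream, and 21 Otx2 peaks, the highest of 18.9-fold. Around *Crx*, a homeodomain gene downstream of Otx2, there were 3 Neurod1 peaks of at most 3.90-fold and 12 Otx2 peaks of at most 14.6-fold. Around *Prdm1*, a repressor that steers precursors to the photoreceptor fate, there were 4 Neurod1 peaks of at most 6.44-fold and 11 Otx2 peaks of at most 18.0-fold. The highest Otx2 peak at *Neurod1* (40.5-fold) was therefore above the highest Otx2 peak at *Otx2* itself. *Otx2* and *Prdm1* had no Neurod1 peak within 1 kb of their start and *Crx* had 1. In all, the windows held 76 peaks at *Neurod1*, 86 at *Otx2*, 61 at *Crx*, and 79 at *Prdm1*.

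**Figure D4:**
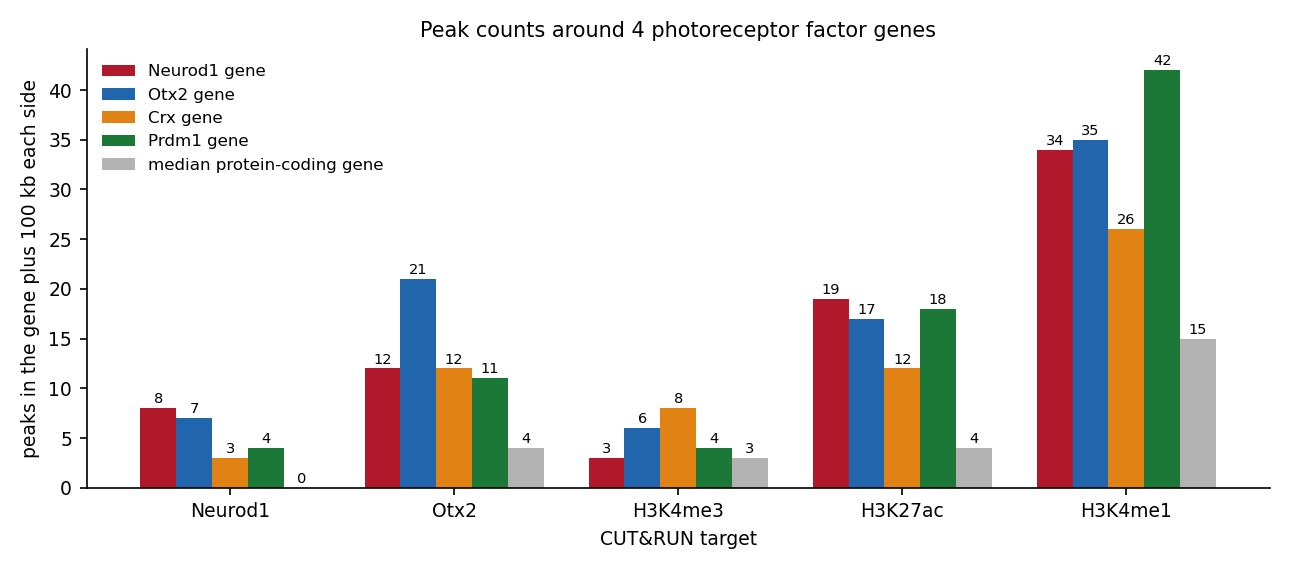
Number of peaks of each CUT&RUN target (x axis) in the gene plus 100 kb on each side (y axis) for *Neurod1*, *Otx2*, *Crx*, and *Prdm1*, with the median of 21938 protein-coding genes in grey. *Neurod1* has 8 Neurod1 and 19 H3K27ac peaks, the most of the 4 genes, and 3 H3K4me3 peaks, the fewest.

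Across 35 genes grouped by role, 30 had a Neurod1 peak in their window (40.3% of all genes) and 9 had it within 1 kb of the start (4.23% of all genes). Among neurogenic bHLH activators, 7 of 10 had a Neurod1 peak. *Neurod4*, a close relative that also promotes neuronal differentiation, had 7 peaks, the highest of 6.91-fold and 1.88 kb from its start. *Neurog2*, which acts before Neurod1 in progenitors, had 0. All 3 E-protein genes had 2 to 5 peaks, and *Tcf3*, which encodes E12 and E47, had the highest of them at 10.1-fold. Long genes have longer windows, such as 546 kb for *Tcf4* and 578 kb for *Thrb* against 204 kb for *Neurod1*. Counts were not adjusted for this length. Among Notch effectors and related repressors, 6 of 7 had a peak. *Hes5*, a Notch target that holds progenitors undifferentiated, had 5 peaks with a maximum of 15.0-fold, and *Hes1* had 0. The window of *Id1*, which sequesters E-proteins, held a peak of 32.6-fold 68.4 kb from its start. The start of *Bcl2l1* lies nearer to that peak than the start of *Id1*. For all of the 35 genes, a peak in the window does not show which gene it acts on. Of the 6 early neuronal genes, all had a peak, and the Notch ligand gene *Dll1* had the highest at 19.2-fold, 33.4 kb from its start. Of 9 photoreceptor genes, 8 had a peak and *Rxrg*, a nuclear receptor gene of cones, had 0. *Mef2d*, which regulates photoreceptor genes, had 9 peaks and was the only gene of the 35 with at least 8.

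The sequences were then searched for E-boxes and for the TAATCC core on both strands. Within 50 bp of the summit, 2 of 8 Neurod1 peaks held CANNTG (43.0% of all Neurod1 peaks) and 0 of 8 held CAGATG (9.53%). The letters were more frequent further out. Over all Neurod1 peaks, CAGATG was found 10.8 times per 100 peaks at 0 to 50 bp from the summit, rose to 34.8 at 100 to 150 bp, and fell to 11.1 at 250 to 300 bp. TAATCC in Otx2 peaks likewise rose from 2.65 to 11.4 per 100 peaks over the same distances. A reach of 200 bp, chosen after this profile was seen, was therefore used to describe the locus.

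Within 200 bp, 7 of 8 Neurod1 peaks at the locus held CAGATG, against 65.4% of all Neurod1 peaks, and 1 of 8 held CAGCTG, against 51.5%. TAATCC was found in 4 of 8, against 20.9%, and in 7 of 12 Otx2 peaks, against 25.4%. Within the same reach, the strongest peak, peak 2, held CAGATG on either side of its summit, 147 bp and 166 bp away, and TAATCC 192 bp away. Its nearest letters to the summit are thus well outside the 50 bp first searched. At peak 5, CAGATG occurred 66 bp and 118 bp and TAATCC 42 bp from the summit, all visible in the sequence above. The promoter peak held 1 CAGATG within 200 bp, 131 bp from its summit on the upstream side of the TSS, and 2 over its whole width. Peak 8 held CAGATG at 137 bp and, at 60 bp, the only CAGCTG within 200 bp of a summit of the 8 peaks. Peak 1, the weakest by −log10 q, held TAATCC at 91 bp and no CAGATG. Counted anywhere inside the peak, CAGATG was present in 6 of 8, against 58.2% of the list, because the match near peak 6 lies outside it. The strongest Otx2 peak held 4 copies of TAATCC over its 1662 bp. The RefSeq promoter entry of *Neurod1* (GRCm38 chr2:79456587-79456886) is built on a start site inside the first exon used here, so it ends short of the CAGATG of the promoter peak (chr2:79456980-79456985). This entry held 1 CANNTG and none of the 3 fully specified words, which 17.2% (CAGATG), 16.3% (CAGCTG), and 7.06% (TAATCC) of 32851 promoters hold. A match of letters is a description and not evidence of a bound site.

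The matches within 200 bp of a summit that lie outside the 300-base sequences above, or in peaks not shown there, are given here, other than the TAATCC of peak 1, with 40 bases of context so that their flanks can be compared, on the plus strand with the match in capitals. CATCTG is CAGATG and GGATTA is TAATCC read from the opposite strand. A match is labelled outside the peak where it is not wholly inside it. The peak 3 match so labelled (chr2:79410838-79410843) crosses the end of the peak at position 79410842. In order, the lines come from chr2:79399764-79399803, chr2:79399790-79399829, chr2:79410652-79410691, chr2:79410821-79410860, chr2:79414704-79414743, chr2:79414806-79414845, chr2:79450858-79450897, chr2:79459429-79459468, and chr2:79459625-79459664.
Neurod1 peak 2, E-box 166 bp from the summit: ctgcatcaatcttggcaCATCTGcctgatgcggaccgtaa
Neurod1 peak 2, TAATCC 192 bp from the summit: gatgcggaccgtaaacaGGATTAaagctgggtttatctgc
Neurod1 peak 3, E-box 117 bp from the summit: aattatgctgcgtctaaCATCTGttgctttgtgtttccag
Neurod1 peak 3, E-box 53 bp from the summit, outside the peak: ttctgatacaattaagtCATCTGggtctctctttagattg
Neurod1 peak 4, E-box 93 bp from the summit: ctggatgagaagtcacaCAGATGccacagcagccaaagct
Neurod1 peak 4, TAATCC 195 bp from the summit: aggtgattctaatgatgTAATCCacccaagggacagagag
Neurod1 peak 6, E-box 177 bp from the summit, outside the peak: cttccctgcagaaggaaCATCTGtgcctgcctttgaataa
Neurod1 peak 8, E-box 137 bp from the summit: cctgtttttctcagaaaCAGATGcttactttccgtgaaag
Neurod1 peak 8, CAGCTG 60 bp from the summit: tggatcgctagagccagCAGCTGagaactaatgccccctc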

How the data were processed

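CUT&RUN was performed on 385000 nuclei of P2 mouse retina per reaction. Per the study's methods, reads were trimmed with cutadapt 3.5 and Trim Galore 0.6.4 and aligned to GRCm38 with Bowtie2, poorly mapped reads were removed with SAMtools 1.12, duplicates were removed with UMI-tools, and technical replicates were merged. Peaks were called jointly for each target against IgG with macs2 at a q-value of 0.05, and blacklisted and mitochondrial regions were removed. The deposited fold enrichment is a ratio over IgG made by the authors, and the deposited −log10 q-value comes from the same step. Neither was rescaled. The lists of the 13-lined ground squirrel were not used here.

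Peaks sharing at least 1 bp with the window or with another peak were counted in Python 3.11.15 with numpy 2.4.6 and pandas 2.3.3, and plotted with matplotlib 3.10.9. The interval code was checked on simulated intervals against bedtools 2.31.1, with 0 differences, and the counts of the real lists were not compared. Genes came from GENCODE M21, peak sequences from the RefSeq GRCm38 genome (pysam 0.24.0), and the promoter entry from RefSeq. Percent at or above a value is the share of a list, or of protein-coding genes, with at least that value. No test was run. The locus, the 35 genes in 5 roles, and the words searched were chosen with earlier results of these data known. Named are the 2 transcription factor lists' peaks and the H3K4me3 peaks at the locus, and part of its H3K27ac peaks. Of H3K4me1, the strongest peak is named and the peaks at Neurod1 peaks are given as a range of fold. The protein-coding genes of the window and the 5 genes with the most similar counts are also named. Alternatives were stricter limits on q and fold, windows of 50 and 200 kb, merging within 500 bp, an overlap of 250 bp, summits in place of overlap, genes with H3K4me3 at the start, and other reaches for the E-box. Reaches of 200 bp and of the whole peak were added after the data were seen.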

Additional observations from a re-analysis of the deposited data

How the results depend on the processing

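Of 70 values recomputed under alternatives, 32 stayed near the reported one (a count within 1.5 times, a percent within its 95% exact binomial interval, which covers counting error only) and 38 moved. With a −log10 q of at least 5, Neurod1 peaks numbered 5 and H3K27ac peaks 12, and the Neurod1 peaks overlapping Otx2, H3K4me3, and H3K4me1 numbered 5, 2, and 5. Genes with at least as many peaks were then 1.76% for Neurod1, 3.87% for Otx2, 63.9% for H3K4me3, and 2.79% for H3K27ac. With 50 kb on each side, H3K27ac peaks numbered 9 and H3K4me1 peaks 14, and the percents of genes were 6.29% for Otx2, 53.3% for H3K4me3, 13.7% for H3K27ac, and 24.4% for H3K4me1. With 200 kb, H3K4me1 peaks numbered 52, and merging peaks within 500 bp left 19. With 100 kb on each side of the start site alone, the percents were 0.419% for Neurod1, 7.02% for Otx2, 45.5% for H3K4me3, 4.44% for H3K27ac, and 2.11% for H3K4me1. Among 11554 genes with H3K4me3 within 1 kb of the start, they were 0.891%, 14.0%, 71.4%, 11.9%, and 11.0% in the same order. By −log10 q, the strongest Neurod1 peak stood at 0.738% of its list. Near the summit, CANNTG was found in 1 Neurod1 peak within 25 bp, 6 within 100 bp, 8 within 200 bp, and 8 over the whole peak, CAGATG in 3, 7, and 6 at the last 3 of these reaches, and CAGCTG in 1 at each of them. Most peaks of the whole Neurod1 list also held CANNTG at those 3 reaches, so its counts at the locus stand near the background. The count of CAGATG within 100 bp was likewise near the share of the list. CAGCTG was less frequent at the locus than in the list at the same 3 reaches. No paired analysis was possible because the results come from no test and each list pools its replicates. Read depth is unknown, so the weak peaks cannot be set against counting error, and the causes of these shifts were not tested.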
